A study of Homo sapiens with 6 samples.

Results

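The 37 genes described here encode the core autophagy machinery and the soluble cargo receptors. They were taken by name from the 58735 genes of the deposited tables, and all 37 were found and had enough reads to be tested among 14179 genes. RNA was measured in H2452 cells, an established human pleural mesothelioma line, grown in RPMI medium with 10% fetal bovine serum. The cells carried a lentiviral vector for Cas9 and a single guide RNA, with mCherry as the marker by which transduced cells were sorted. The guide was a scrambled control sequence in the sgCtrl group (3 libraries) and 1 guide against *NF2* in the sg*NF2*-1 group (3 libraries). Each group was a sorted population, for which no source describes the picking of clones, and both groups carried the vector, Cas9 and mCherry. The study's methods call its replicates biological in general, and do not describe how the 3 libraries of a group were obtained, so the p-values measure the spread between these libraries.

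Autophagy encloses cytoplasm in a double membrane, the autophagosome, and delivers it to the lysosome. The ULK1 kinase complex starts the process, and the class III PI3-kinase complexes mark the growing membrane with phosphatidylinositol 3-phosphate. ATG9A and the ATG2 proteins supply the membrane with lipid, and the WIPI proteins bind phosphatidylinositol 3-phosphate. ATG7, ATG3, ATG10 and the ATG12-ATG5-ATG16L1 complex attach the small ATG8 proteins (the LC3 and GABARAP families) to the membrane, where receptors such as p62 (*SQSTM1*) bind them together with their cargo. *NF2* encodes Merlin, a tumor suppressor of the Hippo pathway that is often lost in mesothelioma, and YAP, which that pathway restrains, acts on genes together with the TEAD factors.

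Total counts ranged from 14782423 to 17416463 per library. Libraries of a group differed less (chi-square of the counts per degree of freedom 5.18 to 12.8) than libraries of different groups (40.7 to 53.5). *NF2* RNA was present in every library at 73.7, 72.9 and 67.5 CPM in the sgCtrl libraries and 39.3, 52.0 and 41.4 CPM in the sg*NF2*-1 libraries (CPM, the count scaled to library size and between libraries by TMM), and its log2 fold change was -0.69 (SE 0.10, edgeR adjusted p = 7.87e-06). The RNA level does not measure the protein. The study lists H2452 as *NF2* wild-type and assessed the knockout by immunoblot. Of 14 mesothelial markers, 8 (*MSLN*, *KRT7*, *KRT8*, *KRT18*, *KRT19*, *PDPN*, *HEG1* and *BNC1*) averaged at least 12.1 FPKM, whereas the defining markers *CALB2* and *WT1* averaged 2.04 and 1.71 FPKM and *UPK1B*, *LRRN4* and *KRT5* had at most 5 counts in any library. By the edgeR test 4 of the 11 mesothelial markers tested were higher in sg*NF2*-1 (*MSLN*, *BNC1*, *KRT7* and *KRT18*, log2 fold changes 0.28 to 1.2) and 4 lower (*WT1*, *PDPN*, *HEG1* and *KRT19*, -1.28 to -0.34), and the 14 summed to 828 to 915 FPKM in sgCtrl and 780.2 to 934 FPKM in sg*NF2*-1. Of the blood cell markers, *PTPRC* had 0 counts in all 6 libraries and *CD3E* and *HBB* at most 2, and these markers with *CD14* summed to 67.2 to 74.3 FPKM in sgCtrl and 32.0 to 35.1 in sg*NF2*-1 almost wholly through *CD14* itself (log2 fold change -1.06, edgeR adjusted p = 5.66e-10). Of 3 endothelial markers, *VWF* had at most 2 counts and the list summed to 0.771 to 1.09 FPKM in sgCtrl and 0.258 to 0.445 in sg*NF2*-1. Of these, *PECAM1* had 83 to 117 counts in sgCtrl and 16 to 26 in sg*NF2*-1 (log2 fold change -2.28, edgeR adjusted p = 1.66e-07), and *CDH5* had 9 to 24 counts in any library and did not pass (0.37). The part of these differences in the autophagy values was not tested.

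Most of the autophagy genes did not pass the test, and the minority that did moved in either direction. By edgeR's quasi-likelihood test with an adjusted p under 0.05, 6 of the 37 genes were higher in sg*NF2*-1 (*ULK1*, *RB1CC1*, *ATG101*, *ATG2A*, *WIPI2* and *MAP1LC3B*), 5 were lower (*PIK3R4*, *ATG4A*, *ATG4C*, *ATG16L2* and *GABARAPL2*) and 26 did not pass. Over all tested genes 17.7% were higher and 16.6% lower by the same rule, so 6 and 5 of 37 were near the background. Under the rule of unadjusted p under 0.05 with a log2 fold change beyond 0.5, 1 gene was higher (*MAP1LC3B*) and 1 lower (*ATG16L2*), against 9.22% and 10.8% of all tested genes. By CPM, every sg*NF2*-1 library lay above every sgCtrl library in 9 genes (the 6 named and *WIPI1*, *ATG12* and *ATG16L1*). In 5 genes every one lay below (the same 5). The shares over all tested genes were 23.2% and 22.2%. The median log2 fold change of the 37 genes was 0.11, with 28 above 0, and that of all tested genes was -0.00, with 7052 of 14179 above 0. In bulk RNA, fewer cells of a kind and less RNA per cell cannot be told apart.

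Several of these calls were lost under another method or when a single library was left out. A fit with a library left out also has fewer samples to estimate the spread. DESeq2 called 3 genes lower in place of 5, and the edgeR fit without a filter on low counts called 2. Leaving out sgCtrl replicate 2 reduced the higher genes from 6 to 3. The lower genes went from 5 to 2 without sgCtrl replicate 1, sgCtrl replicate 3 or sg*NF2*-1 replicate 3, and to 3 without sgCtrl replicate 2 or sg*NF2*-1 replicate 2. Under the fold rule, 2 genes were higher without sgCtrl replicate 1 or 3, and the lower gene was lost without sgCtrl replicate 1 or sg*NF2*-1 replicate 2, whereas 3 were lower without sg*NF2*-1 replicate 1. The median log2 fold change of the 37 genes was 0.06 without sgCtrl replicate 1. Of the 11 genes called, *ULK1*, *RB1CC1*, *MAP1LC3B* and *GABARAPL2* (4 genes) passed in all 12 alternative fits.

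**Figure D1:**
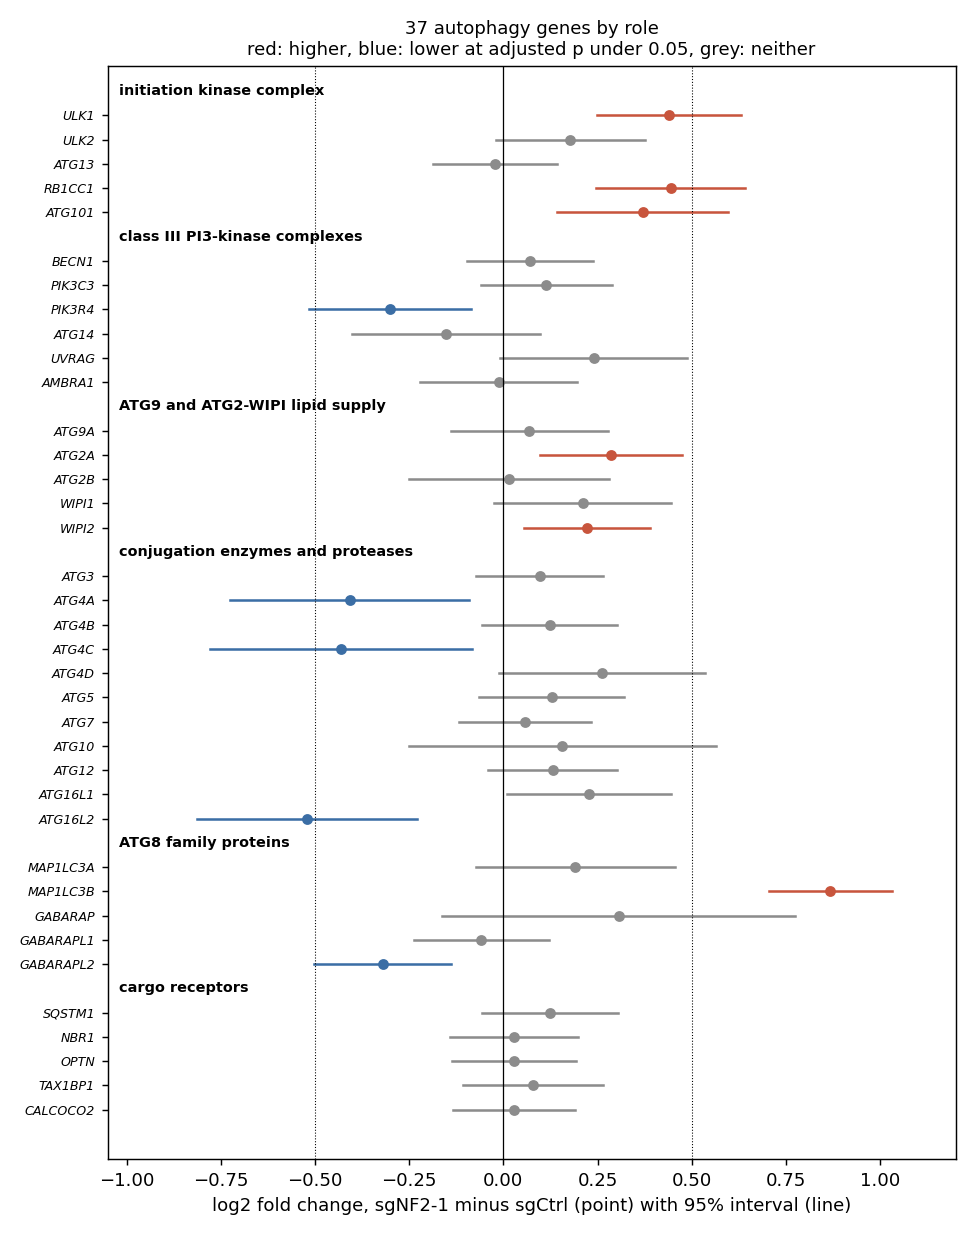
Log2 fold change of the 37 genes in sg*NF2*-1 over sgCtrl from the edgeR fit of the counts (x axis), with 95% confidence intervals as lines, grouped by role (red higher, blue lower, grey not passing, dotted lines at -0.5 and 0.5). *MAP1LC3B* is the farthest point to the right at 0.87 and *ATG16L2* the farthest to the left at -0.52, and the intervals of most other genes cross 0.

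Levels were compared between genes as FPKM, which is per gene length, here the merged exon bases of all annotated transcripts of a gene. Orders, sums and shares between genes therefore also depend on how many exon bases are annotated for each gene. *SQSTM1*, the ubiquitin-binding receptor p62, was the most abundant of the 37 at 306 FPKM over the 6 libraries and ranked 96 among all genes, and *MAP1LC3B* was next at 43.4 FPKM. The receptors *OPTN* (28.8 FPKM) and *NBR1* (27.9 FPKM) followed, then *GABARAPL2* (23.2 FPKM) and *CALCOCO2* (21.6 FPKM). *ATG10*, the enzyme that joins ATG12 to ATG5, and *ATG2B* were the least abundant at 1.13 and 1.11 FPKM. No member was near 0 in either group.

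**Figure D2:**
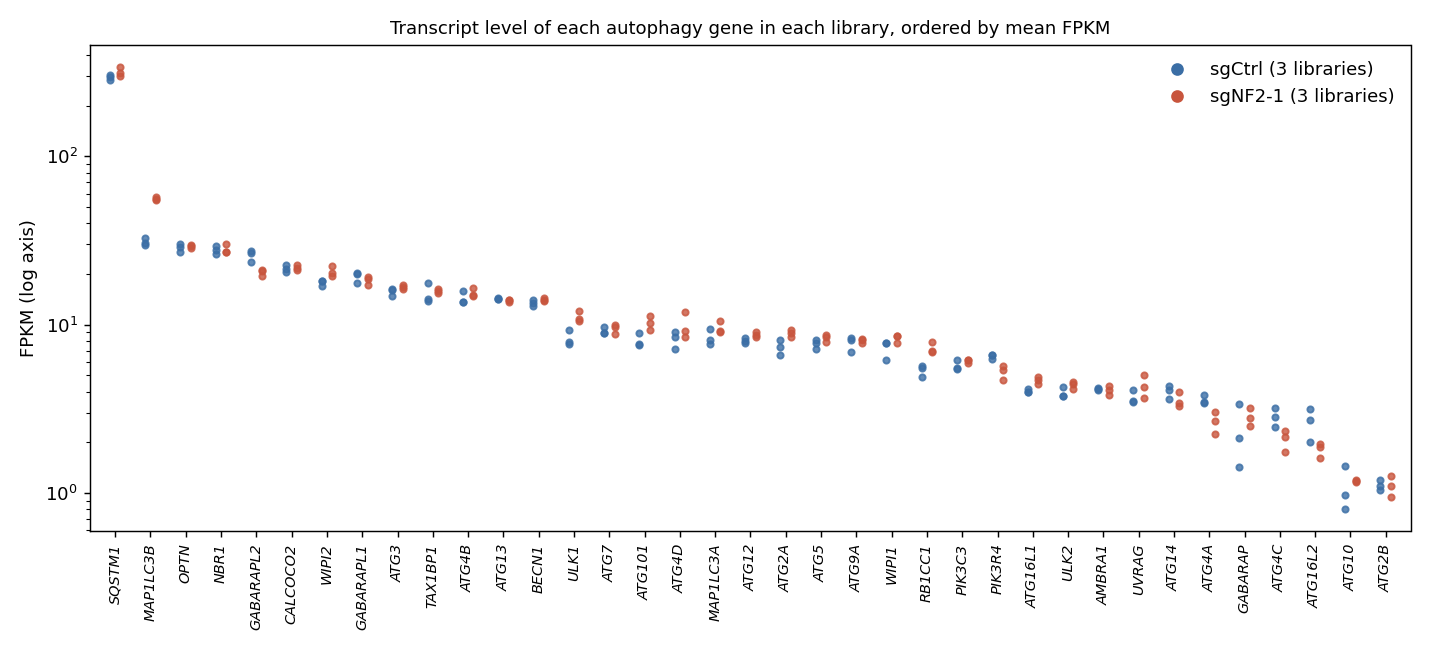
FPKM of each of the 37 genes in the 6 libraries on a log axis, ordered by level, with each point a library and the groups in different colors. *SQSTM1* stands above all others at 306 FPKM, *ATG2B* is lowest at 1.11 FPKM, and the groups are clearly apart for *MAP1LC3B*.

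In the initiation complex 3 of the 5 genes passed the test upward and none downward, where 17.7% and 16.6% of all tested genes did, and the median log2 fold change was 0.37. This count and those of the other roles, each of 5 to 11 genes, are descriptions and were not tested against the background. *ULK1* (hg38, chromosome 12, 131894651 to 131923167), the kinase that starts autophagy, had 74.5, 61.8 and 63.0 CPM in the sgCtrl libraries and 85.3, 97.6 and 87.4 CPM in the sg*NF2*-1 libraries. All 3 sg*NF2*-1 libraries were above the highest sgCtrl library. The mean went from 66.4 ± 7.05 to 90.1 ± 6.60 CPM (SD, n = 3), a log2 fold change of 0.44 (95% CI 0.25 to 0.63, edgeR adjusted p = 0.000596). *RB1CC1* (chromosome 8, 52622456 to 52745843), which encodes the scaffold FIP200, had 39.3, 44.4 and 45.9 CPM in the sgCtrl libraries and 56.0, 63.6 and 56.6 CPM in the sg*NF2*-1 libraries. Again the groups were separate, with a log2 fold change of 0.44 (95% CI 0.25 to 0.64, edgeR adjusted p = 0.000773).

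*ATG101* (chromosome 12, 52069246 to 52077494), which binds and stabilizes ATG13, had 30.0, 25.5 and 26.0 CPM in the sgCtrl libraries and 31.8, 34.9 and 38.6 CPM in the sg*NF2*-1 libraries. The lowest sg*NF2*-1 library was just above the highest sgCtrl library, and the log2 fold change was 0.37 (95% CI 0.14 to 0.60, edgeR adjusted p = 0.0110). This call was lost without sgCtrl replicate 2 (adjusted p = 0.0572) and without sg*NF2*-1 replicate 3 (adjusted p = 0.0513). An antisense gene covers 53.0% of the coding bases of *ATG101* and had 0 counts. *ATG13*, the regulatory subunit and at 14.1 FPKM the most abundant of the complex, had 14.1, 14.2 and 14.4 FPKM in the sgCtrl libraries and 13.6, 14.0 and 14.1 FPKM in the sg*NF2*-1 libraries, with a log2 fold change of -0.02 (95% CI -0.19 to 0.14). *ULK2*, the kinase closest to ULK1, had 0.18 (95% CI -0.02 to 0.38, edgeR adjusted p = 0.160). Summed over the 5 genes, the complex had 39.9 ± 0.960 FPKM (SD, n = 3) in sgCtrl against 47.0 ± 2.00 FPKM in the sg*NF2*-1 libraries.

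Of the 6 genes of the class III PI3-kinase complexes, 1 fell and 5 did not pass. *PIK3R4* (chromosome 3, 130678935 to 130746829), the regulatory subunit VPS15, had 35.3, 37.3 and 37.6 CPM in the sgCtrl libraries and 30.6, 32.2 and 26.7 CPM in the sg*NF2*-1 libraries. Each sg*NF2*-1 library was below each sgCtrl library, with a log2 fold change of -0.30 (95% CI -0.52 to -0.08, edgeR adjusted p = 0.0278). The call held in 7 of 12 alternatives and was lost without sgCtrl replicate 2 (adjusted p = 0.0811) or 3 (0.0576), without sg*NF2*-1 replicate 1 (0.0627) or 3 (0.113), and without the filter on low counts (0.0629). *BECN1* (Beclin 1), the most abundant of the 6, had 14.0, 13.5 and 12.9 FPKM in the sgCtrl libraries and 13.9, 14.3 and 13.8 FPKM in the sg*NF2*-1 libraries. Its groups overlapped and its log2 fold change was 0.07 (95% CI -0.10 to 0.24). The catalytic subunit *PIK3C3* (VPS34) had 0.11 and *ATG14*, which directs the complex to the site of autophagosome formation, had -0.15, with 95% CI of -0.06 to 0.29 and -0.40 to 0.10. *AMBRA1*, a regulator of Beclin 1, had -0.01. *UVRAG*, the subunit of the endosomal complex, had 0.24 with edgeR adjusted p = 0.128, and passed only without sg*NF2*-1 replicate 3 (0.34, adjusted p = 0.0365), with 0.13 as the lowest value when a library was left out. The summed level of the 6 genes was 37.5 ± 0.612 FPKM (SD, n = 3) in sgCtrl against 37.3 ± 1.17 FPKM in the sg*NF2*-1 libraries.

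Among the 5 genes of the ATG9, ATG2 and WIPI group, 2 rose and 3 did not pass. *ATG2A* (chromosome 11, 64894546 to 64917248), a lipid transfer protein that bridges the endoplasmic reticulum and the growing membrane, had 67.1, 61.1 and 55.0 CPM in the sgCtrl libraries and 70.7, 74.6 and 78.1 CPM in the sg*NF2*-1 libraries. The groups did not overlap, and the log2 fold change was 0.29 (95% CI 0.10 to 0.47, edgeR adjusted p = 0.0174). It was not called without sgCtrl replicate 2 (adjusted p = 0.0509) or sgCtrl replicate 3 (adjusted p = 0.0776). *WIPI2* (chromosome 7, 5190188 to 5233826), which binds phosphatidylinositol 3-phosphate and recruits ATG16L1, had 172, 161 and 172 CPM in the sgCtrl libraries and 185, 193 and 212 CPM in the sg*NF2*-1 libraries. Its smallest sg*NF2*-1 value exceeded its largest sgCtrl value, and its log2 fold change was 0.22 (95% CI 0.06 to 0.39, edgeR adjusted p = 0.0355).

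The *WIPI2* call held in 7 of 12 alternatives and was lost with library totals in place of TMM (adjusted p = 0.0575) and without sgCtrl replicate 1 (0.0636), sgCtrl replicate 2 (0.156), sg*NF2*-1 replicate 2 (0.0701) or sg*NF2*-1 replicate 3 (0.107). *WIPI1*, a related phosphoinositide-binding protein, did not pass (0.21, 95% CI -0.02 to 0.44, edgeR adjusted p = 0.161). Its CPM was higher in every sg*NF2*-1 library, though narrowly (lowest 28.2, against 27.9 in sgCtrl replicate 3). In FPKM its groups overlapped, with 7.76 in sg*NF2*-1 replicate 3 and 7.77 in sgCtrl replicates 2 and 3. *ATG9A*, the scramblase of the small vesicles that seed the membrane, had 0.07 (95% CI -0.14 to 0.28), and *ATG2B*, the less abundant paralog of *ATG2A*, had 0.01 (95% CI -0.25 to 0.28). A gene on the same strand, with a mean of 3.83 counts, covers 38.8% of the exon bases and 30.3% of the coding bases of *ATG9A*. The treatment of overlapping reads is not given in the sources used here, so the level of *ATG9A* is uncertain. Together the 5 genes summed to 41.2 ± 0.780 FPKM (SD, n = 3) in sgCtrl against 46.9 ± 1.09 FPKM in the sg*NF2*-1 libraries.

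The conjugation enzymes and proteases split: the 8 genes that did not pass included every E1, E2 and E3 component measured apart from *ATG16L2*, and the 3 that fell were *ATG16L2* and 2 of the 4 ATG4 proteases. *ATG16L2* (chromosome 11, 72814308 to 72843674), a relative of the E3 scaffold ATG16L1, had 28.7, 24.7 and 18.2 CPM in the sgCtrl libraries and 17.3, 14.7 and 17.9 CPM in the sg*NF2*-1 libraries. The highest sg*NF2*-1 library was just below the lowest sgCtrl library, and the sgCtrl range was wide. The log2 fold change was -0.52 (95% CI -0.81 to -0.23, edgeR adjusted p = 0.00560), and without sgCtrl replicate 1 it was -0.37 (adjusted p = 0.0613). Its relative *ATG16L1* was higher in every sg*NF2*-1 library without passing (0.23, 95% CI 0.01 to 0.44, edgeR adjusted p = 0.10).

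ATG4 proteases trim newly made ATG8 proteins and release them from membranes. *ATG4A* (chromosome X, 108091668 to 108154671) had 10.5, 10.7 and 11.8 CPM in the sgCtrl libraries and 9.43, 8.29 and 7.02 CPM in the sg*NF2*-1 libraries, and *ATG4C* (chromosome 1, 62784135 to 62865513) had 10.5, 8.10 and 9.29 CPM in the sgCtrl libraries and 7.73, 7.06 and 5.83 CPM in the sg*NF2*-1 libraries. Both were lower in each sg*NF2*-1 library than in any sgCtrl library. The log2 fold changes were -0.41 (95% CI -0.73 to -0.09, edgeR adjusted p = 0.0424) and -0.43 (95% CI -0.78 to -0.08, edgeR adjusted p = 0.0496). Both calls were close to the threshold and were lost in DESeq2 (adjusted p = 0.0581 and 0.0693). *ATG4A* was also not called without sgCtrl replicate 1 (adjusted p = 0.0578), 2 (0.0747) or 3 (0.111) or without sg*NF2*-1 replicate 2 (0.0882) or 3 (0.153), and *ATG4C* not without sgCtrl replicate 1 (0.194) or 3 (0.0775) or sg*NF2*-1 replicate 2 (0.0852) or 3 (0.170). Neither was called without the filter on low counts (adjusted p = 0.0776 and 0.0821).

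*ATG4B*, at 14.9 FPKM the most abundant of the 4 proteases, had a log2 fold change of 0.12 (95% CI -0.06 to 0.30), and *ATG4D* had 0.26 (95% CI -0.01 to 0.53). *ATG3*, the E2-like enzyme for the ATG8 proteins and the most abundant gene of this role, had 14.8, 16.0 and 16.4 FPKM in the sgCtrl libraries and 17.1, 16.6 and 16.2 FPKM in the sg*NF2*-1 libraries, which overlapped. *ATG7*, the E1-like enzyme, had 0.06, *ATG5* had 0.13, *ATG12* had 0.13 and *ATG10* had 0.16 on the log2 scale, and the smallest edgeR adjusted p of these 4 was 0.237. The 11 genes summed to 77.3 ± 1.45 FPKM (SD, n = 3) in sgCtrl against 80.8 ± 2.10 FPKM in the sg*NF2*-1 libraries.

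Of the 5 ATG8 genes, whose proteins are joined to phosphatidylethanolamine on the autophagosome, 1 rose, 1 fell and 3 did not pass. *MAP1LC3B* (chromosome 16, 87383995 to 87404779), which encodes LC3B, the protein most used to mark autophagosomes, had 171, 166 and 183 CPM in the sgCtrl libraries and 317, 323 and 309.7 CPM in the sg*NF2*-1 libraries. The lowest sg*NF2*-1 library was far above the highest sgCtrl library. Its mean went from 173 ± 8.90 to 317 ± 6.48 CPM (SD, n = 3), a log2 fold change of 0.87 (95% CI 0.70 to 1.03, edgeR adjusted p = 5.77e-09), which ranked 500 from the top among 14179 tested genes. Leaving out single libraries gave 0.84 to 0.91. It was the only one of the 37 genes to rise by more than 0.5 on this scale.

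Reads of *MAP1LC3B* could be shared with *MAP1LC3B2*, a near copy on chromosome 12. The coding sequences of both are 378 bases long and differ at 2 of them, C30G and A338G (MAP1LC3B base first, counted from 1 at the A of the start codon, GENCODE 29), with 307 identical bases between. The first 120 coding bases of each are shown because they hold 1 of the 2 differences, which is in capitals:
MAP1LC3B: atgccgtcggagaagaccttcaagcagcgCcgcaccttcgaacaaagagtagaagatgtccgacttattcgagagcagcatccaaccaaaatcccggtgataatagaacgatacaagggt
MAP1LC3B2: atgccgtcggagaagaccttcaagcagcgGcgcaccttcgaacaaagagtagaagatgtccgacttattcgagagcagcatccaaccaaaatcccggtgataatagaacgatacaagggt
Over whole transcripts, 3.70% of the 100-base stretches of *MAP1LC3B* and 12.3% of those of *MAP1LC3B2* occur in transcripts of another gene. *MAP1LC3B2* had 6.41, 5.79 and 6.13 CPM in the sgCtrl libraries and 12.7, 12.4 and 10.8 CPM in the sg*NF2*-1 libraries, a log2 fold change of 0.97 (SE 0.15, edgeR adjusted p = 2.37e-05). With the counts of both genes summed, the log2 fold change was 0.87. The part of *MAP1LC3B* reads in the *MAP1LC3B2* value was not tested.

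*GABARAPL2* (chromosome 16, 75566351 to 75577881), which encodes GATE-16, moved the other way with 85.7, 75.2 and 87.4 CPM in the sgCtrl libraries and 63.0, 68.4 and 67.6 CPM in the sg*NF2*-1 libraries. All sg*NF2*-1 libraries were below the lowest sgCtrl library. The mean went from 82.8 ± 6.60 to 66.3 ± 2.87 CPM (SD, n = 3), a log2 fold change of -0.32 (95% CI -0.50 to -0.14, edgeR adjusted p = 0.00612). *GABARAPL1* had a log2 fold change of -0.06 (95% CI -0.24 to 0.12) and *MAP1LC3A* had 0.19 (95% CI -0.07 to 0.45). *GABARAP* had 54, 83 and 122 counts in sgCtrl and 106, 118 and 96 in sg*NF2*-1, with a log2 fold change of 0.31 (95% CI -0.16 to 0.77), and did not pass. It was 0.06 without sgCtrl replicate 1 (adjusted p = 0.877) and 0.68 without sgCtrl replicate 3 (adjusted p = 0.0204). Its level is uncertain, because exons of 2 other annotated genes cover 98.3% of its coding bases, 1 of them on the same strand, and the treatment of overlapping reads is not given in the sources used here.

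The ATG8 genes were also compared as parts of their sum within each library. As a share of the summed FPKM of the 5 genes, *MAP1LC3B* went from 35.6% ± 0.0735 in sgCtrl to 52.2% ± 0.910 in sg*NF2*-1 (SD, n = 3). *GABARAPL2* went from 29.8% ± 1.39 in sgCtrl to 19.2% ± 0.851 in sg*NF2*-1, and *GABARAPL1* from 22.2% ± 1.73 in sgCtrl to 17.1% ± 1.07 in sg*NF2*-1. For these 3 genes the groups did not overlap, which gave the smallest p that 3 libraries against 3 allow (two-sided exact permutation test, p = 0.10, 0.333 after adjustment over the 10 shares computed for ATG8 genes and receptors). By CPM of single genes, the groups did not overlap in 23.2% of all tested genes (higher in sg*NF2*-1) and 22.2% (lower). How often shares in sums of other genes do not overlap was not computed. *MAP1LC3A* had 9.73% ± 1.12 in sgCtrl and 8.89% ± 0.788 in sg*NF2*-1 (exact p = 0.4), and *GABARAP* 2.63% in both. The sum itself was 86.8 ± 4.42 FPKM (SD, n = 3) in sgCtrl against 107 ± 0.578 FPKM in the sg*NF2*-1 libraries. A share can fall because another gene of the sum rises, and *GABARAPL1* itself did not pass the test. *GABARAP* enters the sum with the uncertain level described above.

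**Figure D3:**
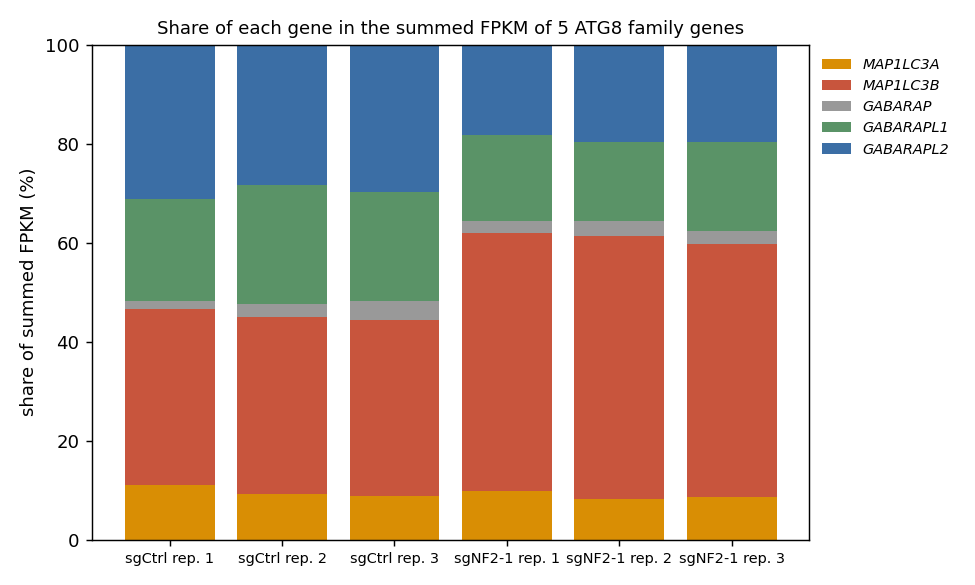
Share of the summed FPKM of the 5 ATG8 genes taken by each gene (y axis, percent) in the 3 sgCtrl and 3 sg*NF2*-1 libraries. *MAP1LC3B* takes 35.6 to 35.7% in sgCtrl and 51.3 to 53.1% in sg*NF2*-1, and the share of *GABARAPL2* is lower in every sg*NF2*-1 library.

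None of the 5 cargo receptors passed the test in edgeR, DESeq2 or limma. Their unadjusted edgeR p was 0.168 or above for each, so 0 of them were under 0.05. *SQSTM1* (chromosome 5, 179806398 to 179838078) had 296, 285 and 303 FPKM in the sgCtrl libraries and 299, 314 and 340.1 FPKM in the sg*NF2*-1 libraries. The sg*NF2*-1 libraries overlapped the sgCtrl range at the lower end, and the log2 fold change was 0.12 (95% CI -0.06 to 0.31, edgeR adjusted p = 0.291). The other receptors, *NBR1*, *OPTN* (optineurin), *TAX1BP1* and *CALCOCO2* (NDP52), had log2 fold changes of 0.03 to 0.08, and the widest of their 95% confidence intervals was -0.11 to 0.27. Summed, the 5 receptors had 387 ± 14.4 FPKM (SD, n = 3) in sgCtrl against 413 ± 19.0 FPKM in the sg*NF2*-1 libraries, of which *SQSTM1* took 76.0% and 77.0%. Genes on the opposite strand cover 22.0% of the exon bases of *SQSTM1*.

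**Figure D4:**
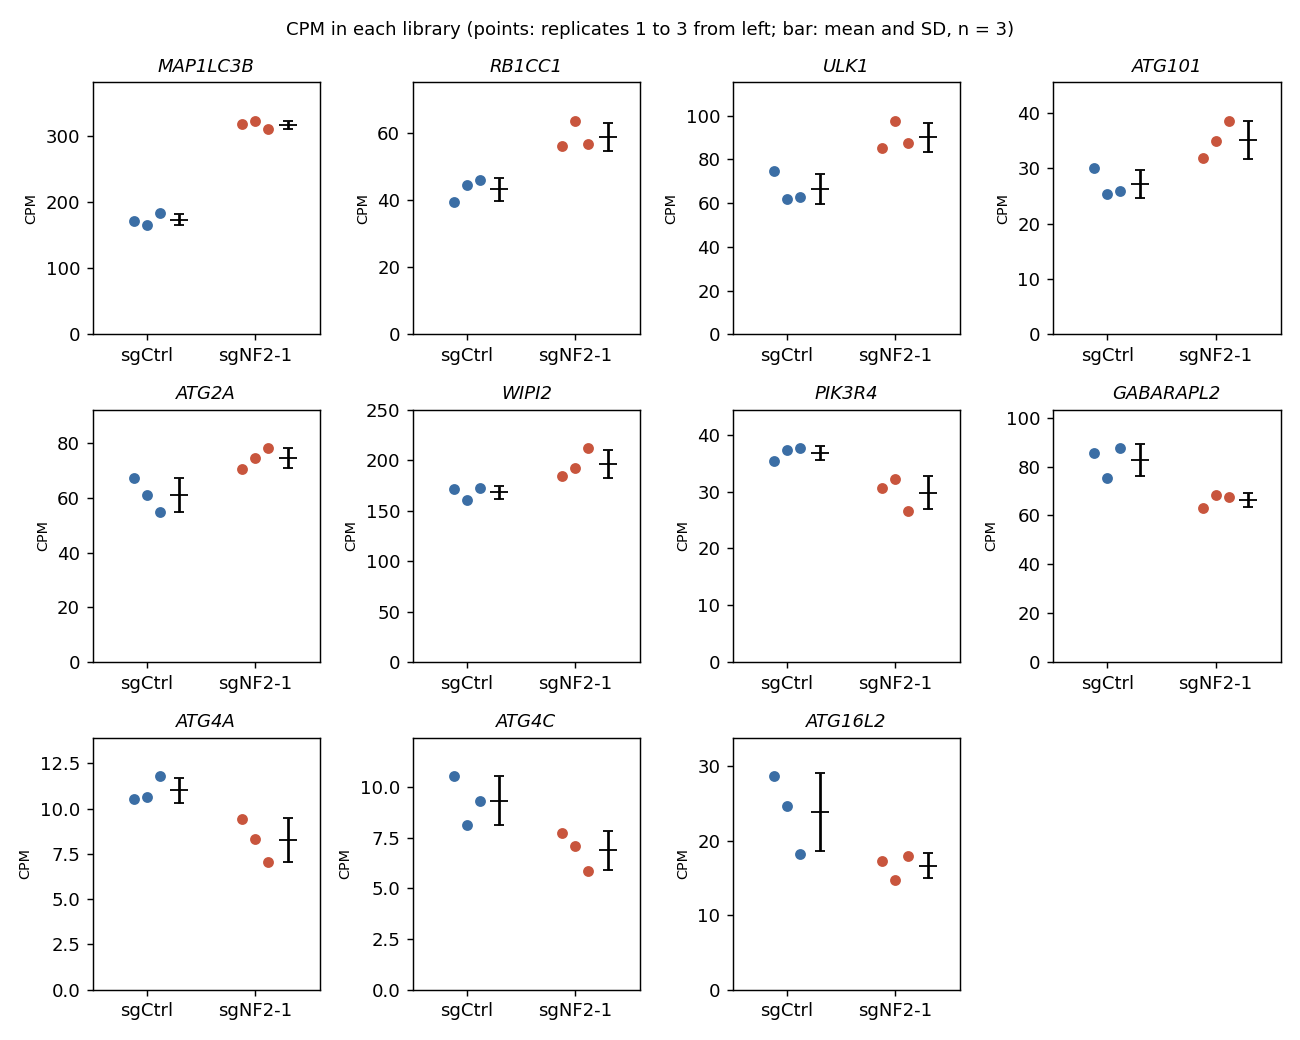
CPM (TMM scaled, y axes from 0) of the 11 genes called at an adjusted p under 0.05, with each point a library and each black mark the group mean with its SD (n = 3). *MAP1LC3B* shows the widest gap between groups, and in *ATG16L2* sgCtrl replicate 3 (18.2 CPM) lies close to the highest sg*NF2*-1 library (17.9 CPM).

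Ratios between paralogs within a library do not depend on the scaling between libraries. Of 10 such pairs, 5 had ratios that did not overlap between the groups, each with exact permutation p = 0.10 and 0.20 after adjustment over the 10 pairs (two-sided). The log2 ratio of *ATG16L2* to *ATG16L1* differed by -0.72 (sg*NF2*-1 minus sgCtrl), that of *ATG4A* to *ATG4B* by -0.55 and that of *ATG4C* to *ATG4B* by -0.57. In the ATG8 family, *MAP1LC3A* to *MAP1LC3B* differed by -0.68 and *GABARAPL2* to *GABARAP* by -0.70. In these 5 pairs the ratio was lower in every sg*NF2*-1 library than in any sgCtrl library. Among all tested single genes, the groups did not overlap in 23.2% (higher in sg*NF2*-1) and 22.2% (lower). The share over ratios of other gene pairs was not computed. Each of the 5 pairs holds a gene called above, so the ratios are not separate evidence, and the level of *GABARAP* is uncertain as described above. Leaving out single libraries gave -0.93 to -0.57 for *ATG16L2* to *ATG16L1*, -0.67 to -0.39 for *ATG4A* to *ATG4B*, -0.67 to -0.40 for *ATG4C* to *ATG4B* and -0.75 to -0.59 for *MAP1LC3A* to *MAP1LC3B*. The range was wider for *GABARAPL2* to *GABARAP*, at -0.98 to -0.38, the last without sgCtrl replicate 1. No adjusted p was under 0.05, which 3 libraries a group cannot reach. In the other 5 pairs the groups overlapped. For *ULK1* to *ULK2* the log2 ratio differed by 0.26 (exact p = 0.2), and by 0.16 without sgCtrl replicate 2. For *ATG2A* to *ATG2B* it differed by 0.29 (exact p = 0.2), and by 0.15 without sg*NF2*-1 replicate 3. *WIPI1* to *WIPI2* differed by -0.01 (exact p = 1), *ATG4D* to *ATG4B* by 0.13 (exact p = 0.5) and *GABARAPL1* to *GABARAP* by -0.44 (exact p = 0.3), with -0.13 to 0.10, 0.03 to 0.21 and -0.72 to -0.20 when single libraries were left out.

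Promoter sequence was available for 33 of the 37 genes (RefSeq, GRCh38.p14), and no entry was matched for *RB1CC1*, *UVRAG*, *ATG4D* and *MAP1LC3A*. The 250 bases before the start were searched on both strands for the letters that TEAD factors bind (GGAATG), the E-box of TFEB and its relatives (CACGTG), the ATF4 composite site (TGATGNAA) and AP-1 (TGANTCA). The TEAD letters were in 7 of 33 (*ATG13*, *ATG7*, *BECN1*, *GABARAPL2*, *OPTN*, *PIK3C3* and *ULK1*), or 21.2%, against 11.9% of 27305 promoters. The E-box was in 2 (*ATG14* and *ATG3*), against 6.49%, and the other motifs were in 0, against 3.19% and 6.60%. Of the genes with the TEAD letters, *ULK1* rose, *GABARAPL2* fell and 5 did not pass. A match is a run of letters and not a shown binding site. The windows of 3 genes are printed, *ULK1* and *GABARAPL2* because they are the called genes with TEAD letters (in capitals, here on the opposite strand) and *ATG16L2* because it was called under the fold rule and holds none of the motifs:
ULK1, chr12:131894372-131894621, plus strand: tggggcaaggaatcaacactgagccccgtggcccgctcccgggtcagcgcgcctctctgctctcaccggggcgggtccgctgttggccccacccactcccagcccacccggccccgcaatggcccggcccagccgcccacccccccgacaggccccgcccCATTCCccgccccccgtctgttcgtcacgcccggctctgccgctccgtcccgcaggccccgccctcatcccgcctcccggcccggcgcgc
GABARAPL2, chr16:75566129-75566350, plus strand: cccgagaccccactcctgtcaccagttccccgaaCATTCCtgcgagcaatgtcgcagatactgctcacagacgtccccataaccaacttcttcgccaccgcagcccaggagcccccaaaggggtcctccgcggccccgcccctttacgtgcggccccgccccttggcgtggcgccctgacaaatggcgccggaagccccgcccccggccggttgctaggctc
ATG16L2, chr11:72814161-72814307, plus strand: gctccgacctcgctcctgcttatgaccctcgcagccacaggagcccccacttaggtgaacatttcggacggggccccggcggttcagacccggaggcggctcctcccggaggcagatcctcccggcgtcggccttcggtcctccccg
The TEAD letters start 90 bases before the RefSeq start in *ULK1* and 216 bases before it in *GABARAPL2*. The windows of *GABARAPL2* and *ATG16L2* end just before the first annotated exon of GENCODE 29, and the window of *MAP1LC3B*, which held none of the motifs, lies in an annotated exon and is not printed.

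The deposited FPKM values gave fewer calls. With limma on log2(FPKM + 1), 4 of the 37 genes were higher (*ULK1*, *RB1CC1*, *ATG101* and *MAP1LC3B*), against 14.3% of 13038 genes, and 3 were lower (*PIK3R4*, *ATG4A* and *GABARAPL2*), against 14.1%. The higher genes numbered 2 without sgCtrl replicate 2 or sg*NF2*-1 replicate 2. The lower genes numbered 0 without sgCtrl replicate 1 and 1 without sgCtrl replicate 2, sg*NF2*-1 replicate 1 or sg*NF2*-1 replicate 3. On this scale *MAP1LC3B* differed by 0.84 (limma adjusted p = 0.000160), and differences of low genes are understated by the added 1.

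Of the 37 genes, 12 have been described as dependent on ATF4 or CHOP, the transcription factors of the integrated stress response, under amino acid starvation (*ATG16L1*, *MAP1LC3B*, *ATG12*, *ATG3*, *BECN1*, *GABARAPL2*, *SQSTM1*, *NBR1*, *ATG7*, *ATG10*, *GABARAP* and *ATG5*). This list was not drawn from the sources used here, and is given as a description only. Of these, *MAP1LC3B* rose, *GABARAPL2* fell and 10 did not pass, where 17.7% of all tested genes were higher and 16.6% lower, with a median log2 fold change of 0.13 beside 0.11 for all 37.

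Among 49 further autophagy genes outside the core, 44 were tested, and 7 were higher, 9 lower and 28 did not pass, with a median log2 fold change of 0.02. These counts were near the 17.7% and 16.6% of all tested genes, and the counts of the smaller lists below were not tested against them. The lower genes numbered 5 without sg*NF2*-1 replicate 1. Those called with a log2 fold change beyond 0.5 are given here. *SH3GLB1*, whose product (Bif-1) joins the UVRAG-Beclin 1 complex, went from 90.5 ± 1.14 to 52.9 ± 1.65 CPM (log2 fold change -0.77, SE 0.08, edgeR adjusted p = 9.71e-08). *TP53INP1*, which binds ATG8 proteins, went from 4.78 ± 1.02 to 1.84 ± 0.620 CPM (-1.36, SE 0.28, edgeR adjusted p = 0.000409). These genes and *MAP1LC3B2* belong to 15 paralogs and further core factors, of which 10 were tested, 2 rose and 3 fell. Of 7 fusion genes, 1 rose and none fell.

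Among 21 organelle and substrate receptors, 2 rose and 5 fell. *BNIP3L* (NIX), a mitophagy receptor, went from 109 ± 6.15 to 76.6 ± 2.74 CPM (-0.50, SE 0.08, edgeR adjusted p = 3.96e-05). *NUFIP1*, described as a receptor for ribosomes, went from 8.76 ± 0.582 to 13.2 ± 1.96 CPM (0.59, SE 0.15, edgeR adjusted p = 0.00324). Of 6 transcription factors of autophagy genes, 2 rose and 1 fell. *TFEB*, an activator of lysosomal and autophagy genes, fell from 14.1 ± 1.99 to 9.00 ± 1.12 CPM (-0.65, SE 0.15, edgeR adjusted p = 0.00159). Its relative *MITF*, with only 9, 8 and 8 counts in sgCtrl and 48, 17 and 24 in sg*NF2*-1, rose from 0.529 ± 0.0418 to 1.84 ± 0.824 CPM (1.80, SE 0.43, edgeR adjusted p = 0.00201). The other factor that rose, their relative *TFE3*, moved by less than 0.5 and is given outside the rule above, for comparison with *TFEB*. *TFE3* averaged 58.0 FPKM, against 1.93 FPKM for *TFEB*. *TFE3* went from 237 ± 3.64 to 290 ± 10.3 CPM (0.29, SE 0.08, edgeR adjusted p = 0.00474).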

How the data were processed

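RNA was measured in 3 sgCtrl and 3 sg*NF2*-1 libraries of H2452 cells, grouped and numbered as their titles give. The authors deposited whole-number counts of reads for each gene, and FPKM. The submitters' processing notes name HISAT2, StringTie 1.3.3b, featureCounts 1.5.0-p3 and hg38, and whether counting used strand is not given in the sources used here, so overlapping and antisense genes are uncertain. For genes with at least 100 counts, deposited FPKM equalled the count divided by gene length and by 1 depth per library, within 1%. The annotation was GENCODE 29.

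The counts were filtered (edgeR filterByExpr, minimum count 10, minimum total 15), scaled by TMM and fitted over 14179 genes with edgeR's quasi-likelihood test (R 4.3.3, edgeR 4.0.16), with Benjamini-Hochberg adjustment over all of them. All log2 fold changes are sg*NF2*-1 over sgCtrl. The authors' DESeq2 analysis was followed in the fold rule (unadjusted p under 0.05, log2 fold change past 0.5 in size). FPKM values were tested with limma 3.58.1 on log2(FPKM + 1) over 13038 genes with a mean of at least 0.5. Shares and paralog ratios were compared by two-sided exact permutation tests, whose smallest p is 0.10 here. Alternatives were DESeq2 1.42.0, DESeq2 size factors, library totals, other filters on low counts, a replicate block, each library left out and, chosen after seeing the data, summed counts of *MAP1LC3B* and *MAP1LC3B2*. Tested on simulated data for sg*NF2*-1 against sgCtrl over 13985 genes, the edgeR step called 44.9% of 98 genes changed by a log2 of 0.4, 69.4% of 98 changed by 0.8 and 12 of 13789 unchanged genes. Far fewer genes were changed there than were called in the data (17.7% higher and 16.6% lower). The adjusted p depends on that share, so these rates do not give the sensitivity of the test in the data.

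The 37 genes, the role groups and the other lists were chosen with earlier results of these data known. All 37 genes are named. Values in every library are given for those with an adjusted p under 0.05 and for the most abundant of each role, and genes of the other lists are named with values where they passed at 0.05 and moved by over 0.5 on the log2 scale. *TFE3*, which moved by less, is named outside this rule for comparison with *TFEB*. Other genes of these lists passed with a change under 0.5 and are not described, among them *PHB2* (log2 fold change 0.30, 138 FPKM). The windows of *ULK1* and *GABARAPL2* were chosen after their values were seen. No 2 libraries agreed within sampling noise (chi-square per degree of freedom 5.18 to 12.8 within groups).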

Additional observations from a re-analysis of the deposited data

How the results depend on the processing

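*MAP1LC3B*, *ULK1*, *RB1CC1* and *GABARAPL2* kept their direction and passed in all 12 alternative fits of the counts. The higher genes among the 37 (6) numbered 3 to 6 when single libraries were left out. The lower genes (5) numbered 3 in DESeq2, 2 without the filter on low counts and 2 to 4 when single libraries were left out. Under the fold rule the higher genes (1) numbered 1 to 2 and the lower genes (1) 0 to 3 when libraries were left out, and the median log2 fold change (0.11) was 0.058 to 0.15. Of the 44 other autophagy genes tested, the lower ones (9) numbered 5 to 9 and the higher ones (7) 6 to 8. In the limma test of FPKM the higher genes (4) numbered 2 to 5 and the lower genes (3) 0 to 2 when libraries were left out, and the lower genes numbered 1 without the filter on low FPKM. The log2 fold change of *NF2* was -0.82 to -0.61 over its alternatives. Leaving out a library also leaves fewer samples to estimate the spread. The cause of the other changes was not tested.

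Changes of sign occurred in genes near 0 that did not pass. Leaving out single libraries gave -0.054 to 0.037 for *AMBRA1*, -0.013 to 0.12 for *ATG9A*, -0.092 to 0.11 for *ATG2B*, -0.010 to 0.43 for *ATG10*, -0.028 to 0.075 for *NBR1*, -0.015 to 0.066 for *OPTN* and -0.0024 to 0.068 for *CALCOCO2*. *AMBRA1* was 0.0019 without the filter on low counts and *ATG2B* was -0.011 with library totals.

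The replicate numbers did not pair the libraries (correlations of same-numbered deviations -0.03, 0.06 and 0.05). With the replicate number as a block, edgeR called 6 of the 37 genes higher and 5 lower, the same genes, and limma on FPKM called 1 lower in place of 3. The median log2 fold change of the 37 genes was then 0.12, 7 other autophagy genes were higher and 10 lower, and *NF2* was at -0.70.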
